A study of Mus musculus with 12 samples.

Results

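Mutant SETBP1 and mutant NRAS were combined in a 2 by 2 design, and the RNA of the cells was compared for genes whose response to the pair departed from the sum of their responses to each mutant alone. All 12 libraries of the series entered the comparison, 3 for each of 4 groups. Bone marrow of female C57Bl/6 mice aged 6 to 10 weeks was transduced with retrovirus, and every group received a pair of vectors. The control received empty vectors only, the SETBP1 group SETBP1 (D868N) with an empty vector, the NRAS group NRAS (G12D) with an empty vector, and the last group both mutants (called "both" from here on). The labels call the cells murine leukemia cells. They do not name the promoter of the vectors, a sort of transduced cells, the number of clones, or whether replicates came from separate animals or cultures, so p-values measure only the spread between these samples, which may be technical.

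SETBP1 is a nuclear protein that binds DNA and the oncoprotein SET, and its mutations in myeloid neoplasms lie in a degron and let the protein accumulate. NRAS is a small GTPase, and a mutation that locks it in its active form keeps the RAF, MEK and ERK kinases switched on. When a pair of lesions act on a gene independently and in proportion, their log2 changes add up; a departure from that sum, called an interaction in genetics, means that the change made by SETBP1 depended on whether mutant NRAS was present.

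The departure was computed for each gene as the log2 change between both and NRAS minus the log2 change between SETBP1 and empty vectors. A departure of -1 is a level with both mutants at 0.5 times the level predicted from the single mutants. A gene lies "below the sum" when the departure is negative and "above the sum" when it is positive. Genes are called when the Benjamini-Hochberg adjusted p of edgeR's quasi-likelihood F test is under 0.05 over all genes tested. Levels are in CPM, counts per 1000000 counts of a library after TMM scaling, which removes differences in composition between libraries.

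The libraries held 7085894 to 8864919 counts. Nras was 82.0 to 93.0 CPM in the libraries without mutant NRAS and 1423 to 1712 CPM in those with it, with a departure of 0.01 (SE 0.12, adjusted p 0.984). Setbp1 had 0 counts in each library without the mutant and 5 to 17 counts in each library with it, so no departure can be given for it. The 11 primary granule genes of myeloid progenitors summed to 28014 to 30681 CPM with empty vectors. Cd3e, Cd8a and Ncr1 of T and NK cells, Pax5 and Rag1 of B cells, Col3a1, Cxcl12 and Dcn of stroma, and the globins and Slc4a1 of red cells were at 0 throughout. The other members of these lists were not: the summed T and NK markers were 18.0 to 40.6 CPM over the libraries, the B cell markers 7.93 to 23.5, the erythroid markers 192 to 384 and the endothelial and stromal markers 75.1 to 289, the last being 103 to 119 with empty vectors and 183 to 289 with NRAS. Rpl26 of the cytosolic ribosomal proteins and Atp6v0c of the lysosome and V-ATPase genes were at 0 throughout as well. A 0 in the deposited counts thus does not by itself show that the RNA was absent. SETBP1 replicate 3 stood apart from the other libraries. It lay at -69.0 on the second principal component against -11.9 to 26.3 for the rest, and its mean correlation with its group was 0.949. Its long transcripts were low against the rest of its group. For each library, the log2 level of a gene was taken minus its mean in the other libraries of the group. The median of these differences over the 2752 genes with the longest transcripts, minus that over the 2751 with the shortest, was -0.72 in SETBP1 replicate 3. It was 0.46 and 0.26 in the other SETBP1 libraries and -0.12 to 0.17 in the other groups. The values 0.46 and 0.26 are measured against a mean that includes SETBP1 replicate 3, so they are not independent of it. The summed monocyte and macrophage markers of SETBP1 replicate 3 were 41454 CPM against 21756 and 24244 CPM in the other SETBP1 libraries. Each result is therefore given with and without this library; in bulk RNA, fewer cells of a type and less RNA per cell cannot be told apart.

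With all 12 libraries 5 of 10993 genes were called, 0.0455% of those tested. Slc7a11, Tmem176b, Camp and Apobec3 were below the sum (0.0364%) and Oaf was above it (0.0091%). At an unadjusted p under 0.05 there were 1420 genes, 586 above and 834 below. Without SETBP1 replicate 3, 110 of 11112 genes (0.99%) were called, 52 above the sum (0.468%) and 58 below it (0.522%), and 27 of them departed at least 2-fold. The 5 genes were among the 110. All 110 had the same sign with 12 libraries, and 96 were at an unadjusted p under 0.05 there, but 63 were smaller in size. Leaving the library out lowered the median standard error of the departure from 0.218 to 0.176 on the log2 scale. The median departure over all genes was -0.01 in both fits, and 5% of genes lay below -0.72 with 12 libraries and below -0.71 without SETBP1 replicate 3.

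**Figure D1:**
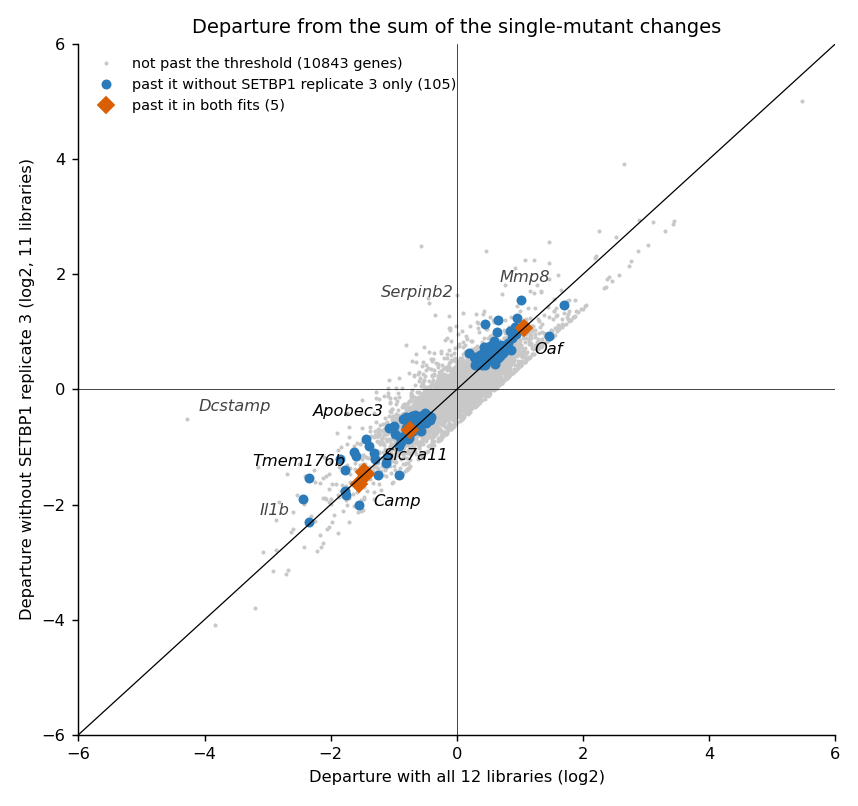
Departure of each gene with all 12 libraries (x axis, log2) and without SETBP1 replicate 3 (y axis, log2); the diagonal marks equal values, and 40 genes at 0 in every library of a group are not drawn. The 5 genes called in both fits lie close to the diagonal, while Dcstamp moves from -4.27 to -0.51 and Serpinb2 from -0.35 to 1.29.

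Slc7a11, the transport subunit of the cystine and glutamate exchanger that supplies cystine for glutathione, was raised by each mutant and by NRAS more than by SETBP1. Its levels were 11.2, 10.7 and 10.9 with empty vectors, 23.1, 24.8 and 22.2 with SETBP1, 131, 121 and 152 with NRAS and 103, 109.7 and 106 with both. No library of a group overlapped with a library of another group, and the libraries with both mutants lay below those with NRAS alone. The separate changes predicted 289 CPM with both, and the mean observed was 106 CPM. The departure was -1.44 (SE 0.15, adjusted p 0.00169), and -1.47 (SE 0.15, adjusted p 1.09e-04) without SETBP1 replicate 3. SETBP1 raised Slc7a11 by 1.10 on the log2 scale without NRAS, and its change with NRAS was -0.34 (adjusted p 0.0873). Without SETBP1 replicate 3 these changes were 1.13 and -0.34 (adjusted p 0.0131), the latter a fall past the threshold. Slc7a11 was called in 23 of 23 alternative fits, and leaving out each library in turn gave departures from -1.51 to -1.35.

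The promoter of Slc7a11 is shown because the call of this gene held in all 23 alternatives, and because ATF4, the transcription factor of the amino acid response, is known to act on it. The window runs from 250 bases before to 50 after the start in RefSeq (GRCm38.p6, chr3:50443564-50443863, minus strand), and lies inside the annotated gene span of 50364936 to 50499087. Capitals mark matches to TGATGNAA, the letters searched for ATF4, and to TTGCNNAA, those searched for C/EBP, on either strand.

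Slc7a11 promoter: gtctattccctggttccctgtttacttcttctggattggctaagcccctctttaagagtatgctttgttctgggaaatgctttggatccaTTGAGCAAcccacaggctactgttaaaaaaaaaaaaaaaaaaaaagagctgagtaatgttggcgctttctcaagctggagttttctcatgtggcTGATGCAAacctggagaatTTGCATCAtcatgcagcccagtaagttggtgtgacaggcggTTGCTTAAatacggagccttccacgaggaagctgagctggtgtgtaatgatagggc

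TGATGNAA was found in this window at -66 to -59 and, on the other strand, at -47 to -40 from the start site, and 4.06% of 27025 promoters of the same length hold it. TTGCNNAA was found at -160 to -153 and at -6 to 2, and 10.7% of promoters hold it. A match describes the letters and is not evidence of binding.

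Tmem176b and its neighbour Tmem176a encode membrane proteins of intracellular vesicles in monocytes and dendritic cells. Tmem176b stood at 59.8, 65.4 and 61.3 with empty vectors, 103, 92.9 and 106 with SETBP1, 23.3, 27.9 and 22.3 with NRAS and 11.3, 16.6 and 14.7 with both. SETBP1 raised it without NRAS (0.65 on the log2 scale without SETBP1 replicate 3) and lowered it with NRAS (-0.78), and no library with SETBP1 overlapped with its comparison group in either setting. The departure was -1.48 (SE 0.19, adjusted p 0.0114) with 12 libraries and -1.43 (SE 0.18, adjusted p 5.07e-04) without SETBP1 replicate 3, a level 0.360 times the predicted one in the first fit. The call was lost without empty replicate 1 (adjusted p 0.0731) and without replicate 3 of that group (0.0588). Tmem176a had levels of 19.1, 23 and 22.4 with empty vectors, 28.4, 40.4 and 34.9 with SETBP1, 5.15, 7.71 and 8.11 with NRAS and 4.62, 4.61 and 6.59 with both. Its libraries with both overlapped with NRAS alone at this low level, and its departure of -1.09 (SE 0.30, adjusted p 0.208), or -1.09 (SE 0.29, adjusted p 0.0813) without SETBP1 replicate 3, was not called.

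The stretch between the genes is shown because they are read in opposite directions from neighbouring start sites. In RefSeq (GRCm38.p6), 3 promoter windows were listed for Tmem176b and 2 for Tmem176a, and a single window of each gene was used. The starts of those used lie at 48841374 (Tmem176b, minus strand) and 48841483 (Tmem176a, plus strand) of chromosome 6, with 108 bases between them. The window is chr6:48841325-48841624, written along the minus strand, and capitals mark the bases from one start to the other.

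Tmem176b promoter: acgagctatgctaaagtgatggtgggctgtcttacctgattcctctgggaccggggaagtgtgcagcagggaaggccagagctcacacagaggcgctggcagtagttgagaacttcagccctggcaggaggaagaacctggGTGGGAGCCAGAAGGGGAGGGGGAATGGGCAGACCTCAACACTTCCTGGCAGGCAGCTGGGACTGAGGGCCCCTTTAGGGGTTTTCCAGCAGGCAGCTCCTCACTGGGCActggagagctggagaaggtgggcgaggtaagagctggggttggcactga

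The annotated span of Tmem176b (48833811 to 48845948) covers that of Tmem176a (48841483 to 48845364), and the strand rule of the counting is not given in the sources used here. Reads of the pair may therefore have been assigned to either gene.

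Camp, the cathelicidin of secondary neutrophil granules, was lower with each mutant and lowest with both. Camp measured 294, 291 and 297 with empty vectors, 242, 178 and 172 with SETBP1, 79.3, 54.0 and 49.9 with NRAS and 14.7, 15.1 and 12.1 with both. The 4 groups did not overlap. The single mutants predicted 41.0 CPM and the mean observed was 14.0 CPM, a departure of -1.55 (SE 0.24, adjusted p 0.0424), or -1.64 (SE 0.21, adjusted p 8.29e-04) without SETBP1 replicate 3. On the log2 scale the fall was therefore larger than the sum. On the CPM scale the same levels lay 49.5 CPM (SE 24.2) above the sum of the differences. The call was lost in 7 of 12 fits with a library left out: any of the 3 empty libraries (adjusted p 0.150, 0.191 and 0.142), NRAS replicate 2 (0.0791) or any of the 3 libraries with both (0.184, 0.128 and 0.194). It was also lost with limma-voom (0.164), library size scaling (0.0673) and upper-quartile scaling (0.0631).

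Apobec3, a cytidine deaminase that restricts retroviruses, changed least in size of the 5 and had little spread within groups. Apobec3 stood at 169, 159 and 168 with empty vectors, 225, 221 and 239 with SETBP1, 172, 167 and 189 with NRAS and 143, 141 and 153 with both. SETBP1 alone lifted it above every control library, NRAS alone left it overlapping with the control, and both mutants put it below all libraries of the other groups. The departure was -0.74 (SE 0.10, adjusted p 0.0178) with 12 libraries and -0.71 (SE 0.10, adjusted p 9.37e-04) without SETBP1 replicate 3. Leaving out an empty library raised the adjusted p to 0.0731, 0.107 and 0.0588 and leaving out SETBP1+NRAS replicate 1 or 2 to 0.129 and 0.0877; the gene remained called in the other 7 fits.

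The Apobec3 promoter is shown because several interferon-stimulated genes lay on the same side of the sum, as described further on. The window is chr15:79892158-79892457 (RefSeq, GRCm38.p6, plus strand), and the gene spans 79892058 to 79918218. Capitals mark a match to GAAANNGAAA, the letters searched for an interferon-stimulated response element, at -140 to -131 on the other strand.

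Apobec3 promoter: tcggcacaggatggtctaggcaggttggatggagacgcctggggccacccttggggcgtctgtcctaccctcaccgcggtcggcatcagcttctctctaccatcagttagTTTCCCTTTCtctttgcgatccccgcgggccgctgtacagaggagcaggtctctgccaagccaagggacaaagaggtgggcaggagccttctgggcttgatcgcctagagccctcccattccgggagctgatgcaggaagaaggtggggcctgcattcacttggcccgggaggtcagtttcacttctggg

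GAAANNGAAA occurs in 3.49% of the 27025 promoters. The motifs searched were 6: the 3 above, TGANTCA for AP-1, TGACNNNGC for the antioxidant response and AGATAA for GATA factors. The promoters of Camp, Tmem176b and Tmem176a held no match to any of them, and that of Slc7a11 held none to TGACNNNGC. This says only that these letters are not in the windows used. The promoter of Oaf held a match to TGACNNNGC at -211 to -203, as do 12.4% of promoters.

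Oaf, the mouse counterpart of the fly gene out at first, was the gene called above the sum with 12 libraries. Oaf measured 16.5, 14.1 and 13.1 with empty vectors, 11.8, 10.6 and 11.1 with SETBP1, 47.3, 46.9 and 52.4 with NRAS and 81.7, 76.4 and 76.7 with both. SETBP1 did not change it past the threshold without NRAS (-0.38, adjusted p 0.0763 without SETBP1 replicate 3), although its libraries lay below the control. With NRAS it raised the gene by 0.68. The departure was 1.06 (SE 0.16, adjusted p 0.0374), a level 2.09 times the predicted one, and 1.06 (SE 0.17, adjusted p 0.00519) without SETBP1 replicate 3. This call was the least stable of the 5: of the 12 fits with a library left out it remained in those without SETBP1 replicate 1 (0.0265) or 3, and the others gave adjusted p values up to 0.184. It was also lost with limma-voom (0.107).

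**Figure D2:**
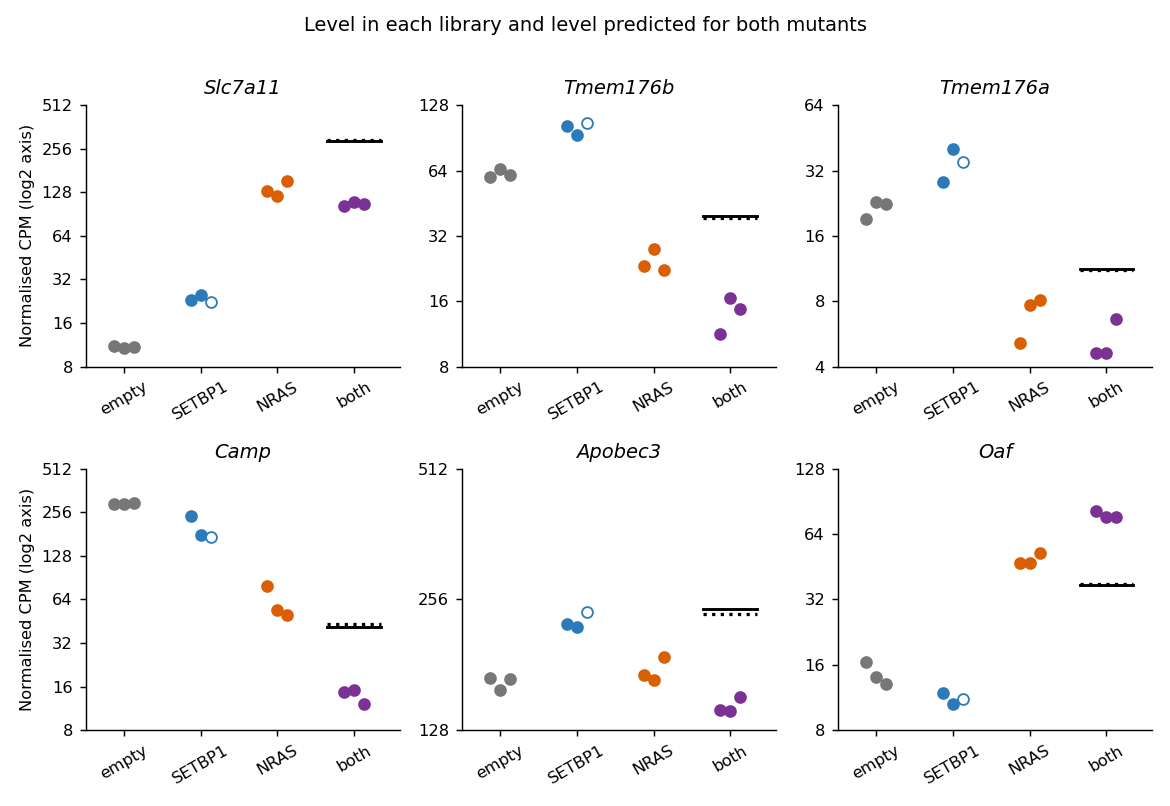
Normalised CPM (log2 axis) of the 5 genes called with 12 libraries and of Tmem176a, a point per library; SETBP1 replicate 3 is the open point, and lines give the level predicted for both mutants with 12 libraries (solid) and without that library (dotted). The points with both lie below the lines for Slc7a11, Tmem176b, Camp and Apobec3 and above them for Oaf, and the open point lies within or next to its group.

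The 110 genes called without SETBP1 replicate 3 were sorted by the SETBP1 change without NRAS and with it. The departure is the difference between these changes, so their signs are partly set by the choice of genes. SETBP1 alone raised 36 of the 58 genes below the sum (7.61% of all genes) and lowered 42 of the 52 above it (7.73%). With NRAS present it lowered 29 of the 58 (4.31%) and raised 17 of the 52 (3.21%). These changes are parts of the departure itself, so nothing is read from the counts. Of the 36, the SETBP1 change with NRAS was not called for 20, turned to a fall for 8 and remained a rise for 8. Of the 42, it was not called for 32, turned to a rise for 8 and remained a fall for 2. The other 22 genes below the sum were 11 that SETBP1 lowered with and without NRAS and 11 that it did not change alone, 10 of which fell with NRAS. With NRAS present SETBP1 changed 7.52% of genes past the threshold and without it 15.3%. Whether a gene departs also depends on the scale: on the CPM scale all 52 genes above the sum kept their direction, 43 of the 58 below it did, and 15 turned. Some of the 15 turned by little, such as Fth1 by 12.5 of 10317.5 CPM. No error was computed on that scale without SETBP1 replicate 3. For 8 genes below and 3 above, the sum of differences on that scale was a level under 0, which no gene can have.

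**Figure D3:**
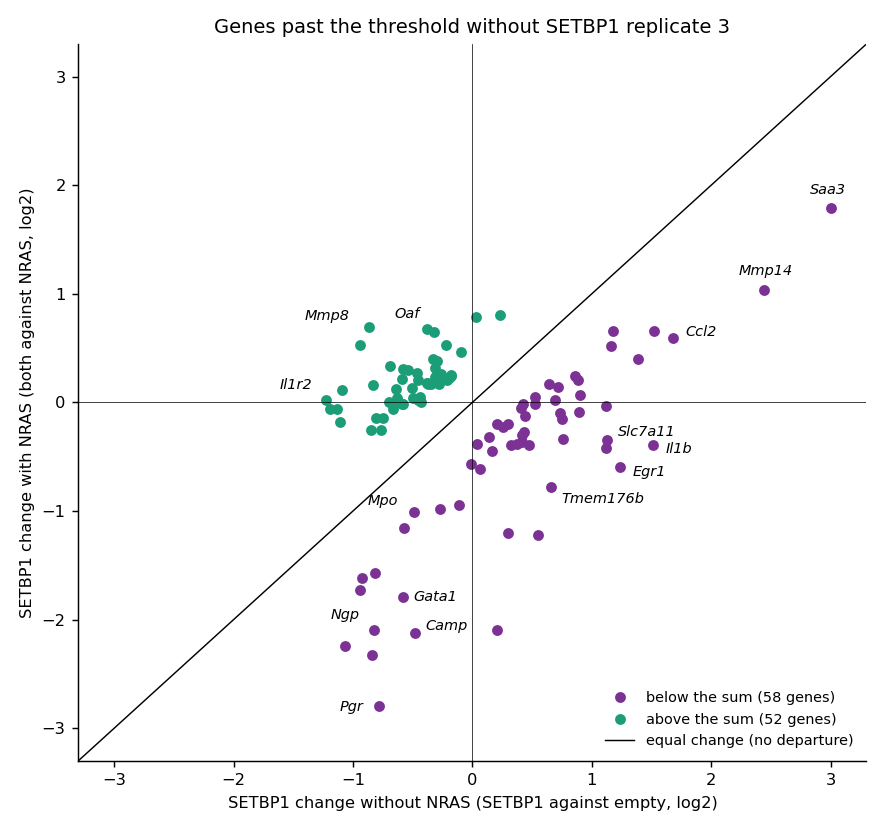
SETBP1 change with NRAS (y axis, log2) against the SETBP1 change without NRAS (x axis, log2) for the 110 genes called without SETBP1 replicate 3; the diagonal marks equal changes. Genes above the sum lie mostly left of 0 and near or above the horizontal line, and genes below the sum fall into a group right of 0 with small changes on the y axis and a granule group with Camp, Ngp and Mpo at the lower left.

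Several inflammatory and immediate-early genes lay below the sum. Departures and calls given from here on are those without SETBP1 replicate 3 unless the 12 libraries are named. Without SETBP1 replicate 3, each mutant alone raised Il1b, Egr1, Junb, Dusp2, Ccl2, Ccl4, Cxcl10, Cd14, Clec4d and Clec4e past the threshold, and the level with both was lower than the separate changes predicted. Il1b, the pro-inflammatory cytokine interleukin-1 beta, stood at 5.09, 5.59 and 4.72 with empty vectors, 15.2, 14.1 and 34.4 with SETBP1, 15.7, 14.3 and 20.4 with NRAS and 14.0, 9.60 and 14.9 with both. SETBP1 replicate 3 was the highest library of all, and the libraries with both overlapped with NRAS alone. The departure was -1.90 (SE 0.28, adjusted p 0.00256) without that library and -2.44 (SE 0.45, adjusted p 0.119) with it. Il1b was called with each of 11 further libraries left out. Of the 20 genes tested on its NF-kB and IL-1 list, 12 lay below and 8 above the sum, at a median of -0.08 (-0.29 with 12 libraries). The called members were Il1b below and Il1r2 above.

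Egr1, a transcription factor induced within minutes of ERK activation, measured 6.97, 10.2 and 13.4 with empty vectors, 31.9, 15 and 20.4 with SETBP1, 143, 142 and 178 with NRAS and 92.0, 110.1 and 104 with both. All libraries with NRAS lay far above the rest, and those with both lay below NRAS alone without overlap. Its departure was -1.83 (SE 0.30, adjusted p 0.00519) without SETBP1 replicate 3 and -1.76 (adjusted p 0.132) with it; the value without SETBP1 replicate 3 moved between -2.27 and -1.18 when SETBP1 replicate 1 or 2, which differed from each other, or another library was left out as well, and a robust fit gave an adjusted p of 0.0963. Junb, an AP-1 subunit, had levels of 100.2, 97.1 and 95.7 with empty vectors, 176, 179 and 240.4 with SETBP1, 213, 215 and 209 with NRAS and 260.1, 232 and 263 with both. With both it was higher than with NRAS alone, but less than predicted. The Junb departure was -0.61 (SE 0.09, adjusted p 0.00276, or -0.78 with 12 libraries). Dusp2, a nuclear phosphatase that switches off MAP kinases, departed by -0.91 (SE 0.17, adjusted p 0.0111, or -0.89 with 12 libraries). The call of Dusp2 was lost without SETBP1 replicate 2 (adjusted p 0.0674). Of the 20 immediate-early genes tested, 13 lay below and 7 above the sum without SETBP1 replicate 3. Their median was -0.21 (-0.36 with 12 libraries). Over all genes tested, 0.522% were called below and 0.468% above, the shares to set beside each count of called list members given without that library. Of the 20, 4 were called below and 1 above.

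The gene above was Klf2, a transcription factor of quiescent and anti-inflammatory states, at 31.0, 29.0 and 33.5 with empty vectors, 33.8, 39.5 and 56.3 with SETBP1, 83.2, 79.1 and 83.2 with NRAS and 146, 147 and 137 with both. Its libraries with both lay far above all others. The departure was 0.57 (SE 0.13, adjusted p 0.0353) without SETBP1 replicate 3 and 0.33 with it, and it was called with 3 of 11 further libraries left out (highest adjusted p 0.0973, with SETBP1+NRAS replicate 1 left out) but not with sample quality weights (0.0546) and library size scaling (0.0519).

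Among chemokines, which draw leukocytes to a tissue, Ccl2 attracts monocytes. Ccl2 stood at 74.3, 98.5 and 67.2 with empty vectors, 266, 247 and 613 with SETBP1, 1615, 1506 and 1323 with NRAS and 2309, 2086 and 2325 with both. Every step from empty vectors to SETBP1, NRAS and both was upward without overlap, and SETBP1 replicate 3 lay at more than the level of the other SETBP1 libraries combined. The level with both was 0.472 times the predicted 4741 CPM without SETBP1 replicate 3. This is a departure of -1.08 (SE 0.15, adjusted p 9.37e-04, or -1.63 with 12 libraries). On the CPM scale Ccl2 lay above the sum, as did Ccl4. Ccl4 departed by -0.86 (SE 0.17, adjusted p 0.0158, or -1.44 with 12 libraries) and Cxcl10, a chemokine induced by interferon, by -1.54 (SE 0.31, adjusted p 0.0183, or -2.34 with 12 libraries). The Ccl4 call was lost without empty replicate 1 (0.0873) or SETBP1 replicate 1 (0.0579), and that of Cxcl10 without SETBP1 replicate 2 (0.175) or SETBP1+NRAS replicate 1 (0.0613). Ccl4 also lost its call with limma-voom (0.107) and sample quality weights (0.118), and Cxcl10 with the robust fit (0.0972). Of 20 chemokines and receptors tested, 15 lay below the sum with a median of -0.47 (-0.65 with 12 libraries) and 3 were called. Over all genes tested, 5714 of 11112 lay below.

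Cd14, Clec4d and Clec4e, receptors of microbial products, were also below the sum. Cd14, the co-receptor for lipopolysaccharide, measured 38.2, 34.3 and 25.9 with empty vectors, 63.7, 80.0 and 147 with SETBP1, 365, 346 and 363 with NRAS and 343, 287 and 418 with both. NRAS alone and both overlapped, so the rise that SETBP1 made alone was not seen on top of NRAS. The departure of Cd14 was -1.16 (SE 0.19, adjusted p 0.00519) without SETBP1 replicate 3 and -1.60 (adjusted p 0.172) with it, and the call was lost with the robust fit (0.0685). Clec4d and Clec4e, paired C-type lectins that bind mycobacterial glycolipids, departed by -0.99 (SE 0.15, adjusted p 0.00426, or -1.39 with 12 libraries) and -0.68 (SE 0.13, adjusted p 0.0146, or -1.08 with 12 libraries). On the CPM scale Clec4d lay just above the sum, at 121 CPM against 115. The Clec4e call was lost without empty replicate 1 or SETBP1+NRAS replicate 1 (adjusted p up to 0.0586). Tlr13, which senses bacterial ribosomal RNA, lay above the sum at 0.75 (SE 0.16, adjusted p 0.0253, or 0.70 with 12 libraries) and was called with 5 of 11 further libraries left out (highest adjusted p 0.117, with SETBP1 replicate 2 left out). Over the 22 receptors tested, 12 lay above and 10 below.

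Mmp14, a membrane-anchored collagenase of macrophages, and Saa3, an acute-phase protein, were raised strongly by SETBP1. Mmp14 stood at 10.5, 9.02 and 10.7 with empty vectors, 46.8, 62.6 and 102 with SETBP1, 7.66, 7.58 and 6.85 with NRAS and 15.4, 13.6 and 16.4 with both. NRAS lowered it and SETBP1 raised it in both settings, less so with NRAS. Its departure was -1.40 (SE 0.23, adjusted p 0.00519) without SETBP1 replicate 3, and -1.77 with it. Saa3 measured 21.8, 24.5 and 19.8 with empty vectors, 170.3, 184 and 470.3 with SETBP1, 5.68, 7.04 and 5.83 with NRAS and 22.2, 14.3 and 27.7 with both, a rise by SETBP1 of 3.00 without NRAS and 1.79 with it. The Saa3 departure was -1.22 (SE 0.27, adjusted p 0.0295, or -1.85 with 12 libraries), and it was called with 5 of 11 further libraries left out (highest adjusted p 0.115, with NRAS replicate 2 left out).

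The summed monocyte and macrophage markers stood at 16104 to 18578 CPM with empty vectors, 21756 to 41454 with SETBP1, 7507 to 8707 with NRAS and 8713 to 9832 with both, over 23 markers of which none was at 0 throughout. They were highest with SETBP1, most of all in replicate 3, and lowest with NRAS, and their part in the results for these genes was not tested. Within that list 12 markers lay above and 11 below the sum without SETBP1 replicate 3, at a median of 0.00, against 6 and 17 with it, at a median of -0.28. Cd14 and Ly6c2, a surface marker of inflammatory monocytes, were its called members, both below; Ly6c2 departed by -0.42 (SE 0.10, adjusted p 0.0409, or -0.50 with 12 libraries) and was called with 4 of 11 further libraries left out (highest adjusted p 0.118, with NRAS replicate 2 left out).

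**Figure D4:**
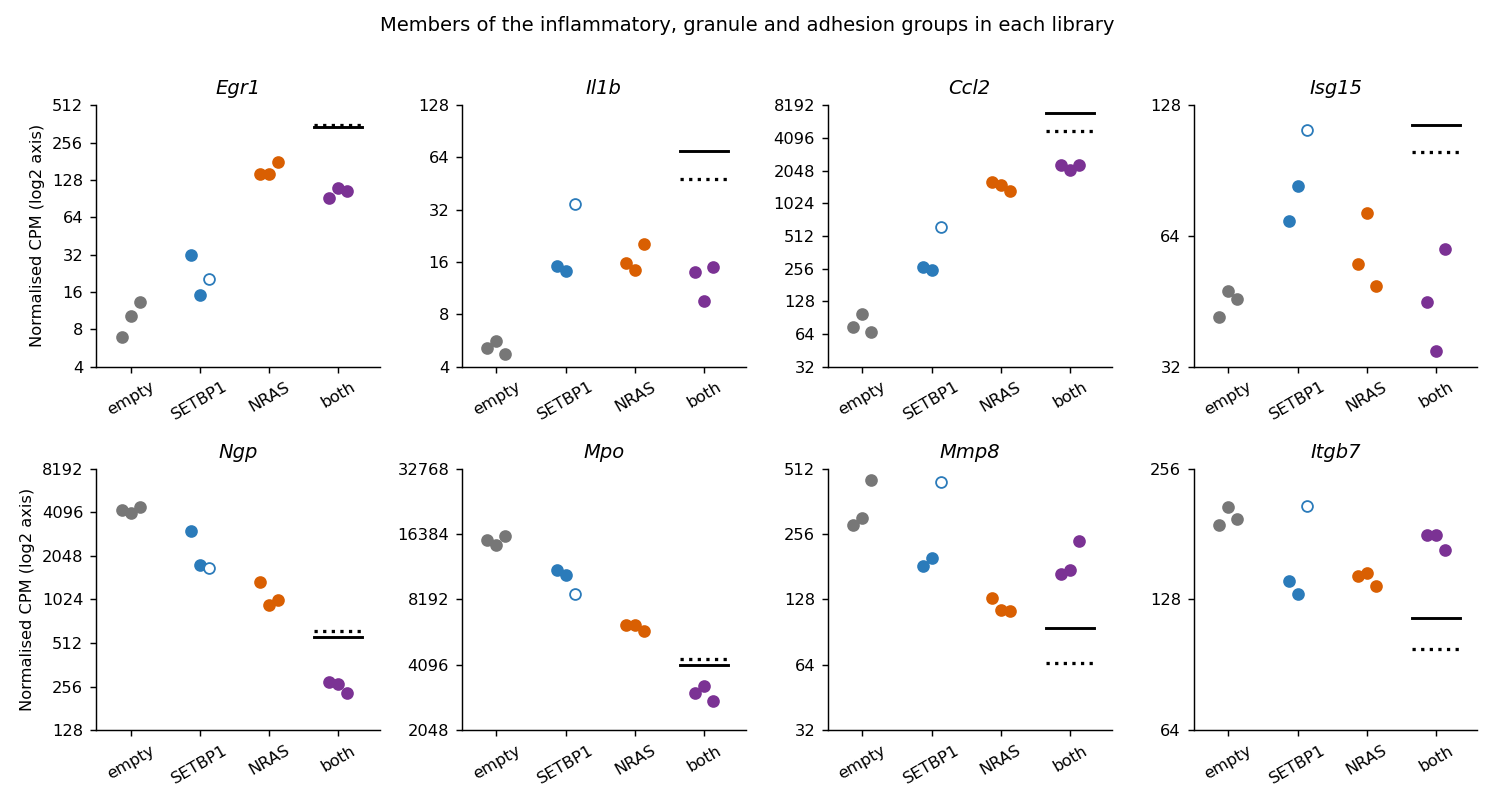
Normalised CPM (log2 axis) of 8 genes called without SETBP1 replicate 3, a point per library, with that library as the open point; lines give the level predicted for both mutants with 12 libraries (solid) and without it (dotted). SETBP1 replicate 3 is the highest SETBP1 library for Il1b, Ccl2, Isg15, Mmp8 and Itgb7, and the points with both lie above the lines only for Mmp8 and Itgb7.

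Interferon-stimulated genes restrict viruses and mark interferon signalling, and all those tested on their list lay below the sum. This held for 26 of 26 genes tested in both fits, at a median of -0.54 with 12 libraries and -0.39 without SETBP1 replicate 3, beside a median of -0.01 over all genes. No single alternative moved the median above -0.39 with 12 libraries or above -0.29 without that library. The genes are known to be induced together, so their agreement in sign is not that of independent genes. With 12 libraries edgeR called 0 of them and 16 were at an unadjusted p under 0.05, and without SETBP1 replicate 3 these counts were 2 and 14. Over all genes, 834 of 10993 lay below the sum at an unadjusted p under 0.05 with 12 libraries. Without SETBP1 replicate 3 it was 867 of 11112, and 0.522% were called below. Isg15, a ubiquitin-like modifier, stood at 41.6, 47.7 and 45.7 with empty vectors, 69.1, 83.5 and 112 with SETBP1, 55.1, 72.2 and 49.2 with NRAS and 45.2, 34.8 and 59.7 with both. SETBP1 raised it without NRAS, with SETBP1 replicate 3 highest, while NRAS alone and both overlapped. The departure of Isg15 was -1.10 (SE 0.23, adjusted p 0.0241) without that library and -1.31 (SE 0.29, adjusted p 0.178) with it; the call was lost without empty replicate 1, SETBP1 replicate 2, NRAS replicate 2 or SETBP1+NRAS replicate 1 (adjusted p up to 0.117) and with the robust fit (0.0834). Bst2, a membrane tether of budding virus, departed by -0.66 (SE 0.15, adjusted p 0.0295, or -0.80 with 12 libraries) and was called with 5 of 11 further libraries left out (highest adjusted p 0.131, with SETBP1 replicate 2 left out) but not with the robust fit (0.0878).

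Genes of antigen presentation lay on the same side: 16 of 17 tested were below the sum, at a median of -0.41 (-0.43 with 12 libraries). H2-K1, the heavy chain of a class I molecule, was the called member. Its levels were 1334, 1354 and 1330.5 with empty vectors, 1508, 1582 and 1859.6 with SETBP1, 1008, 1177 and 1058 with NRAS and 932, 891 and 997 with both. SETBP1 raised it without NRAS and lowered it with NRAS, in each case without overlap. The departure of H2-K1 was -0.41 (SE 0.09, adjusted p 0.0330, or -0.50 with 12 libraries). The call held with 5 of 11 further libraries left out (highest adjusted p 0.119, with SETBP1 replicate 2 left out), and reads may be shared with other class I genes of near-identical sequence.

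The iron and antioxidant genes Hmox1 and Fth1 were raised by each mutant and lay below the sum. Hmox1, which degrades heme, measured 109.5, 147 and 107 with empty vectors, 292, 249 and 493 with SETBP1, 719, 592 and 598 with NRAS and 969.8, 885 and 889 with both. Fth1, the heavy chain of ferritin, measured 2787, 3388 and 2768 with empty vectors, 6719, 6765 and 11978 with SETBP1, 7152, 6165 and 6315 with NRAS and 10111, 9767 and 11075 with both. In both genes SETBP1 replicate 3 was far above the other SETBP1 libraries. Hmox1 was highest with both mutants, and Fth1 was highest in SETBP1 replicate 3, followed by the libraries with both. The departures were -0.64 (SE 0.15, adjusted p 0.0409, or -0.99 with 12 libraries) and -0.52 (SE 0.11, adjusted p 0.0276, or -0.85 with 12 libraries) without SETBP1 replicate 3. Hmox1 was called with 4 of 11 further libraries left out (highest adjusted p 0.131, with empty replicate 1 left out) and Fth1 with 5 of 11 further libraries left out (highest adjusted p 0.102, with empty replicate 1 left out). Hmox1 was not called with DESeq2 (0.106) and the robust fit (0.131). On the CPM scale Hmox1 lay above the sum (915 against 786 CPM), and Fth1 was close to it (10317.5 against 10305 CPM). Fth1 has many processed pseudogenes, which can take or lend reads. With Slc7a11 these were the 3 called of 22 genes of the NRF2 and glutathione list, which had 17 below and 5 above the sum, at a median of -0.09 (-0.24 with 12 libraries).

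Phgdh, the first enzyme of serine synthesis from glycolysis, joined Slc7a11 on the list of ATF4 and amino acid supply. Phgdh stood at 493, 505 and 476 with empty vectors, 617, 685 and 629 with SETBP1, 493, 524 and 499 with NRAS and 490.4, 497 and 479 with both. SETBP1 raised it without NRAS, whereas NRAS and both overlapped with the control. The departure was -0.45 (SE 0.08, adjusted p 0.00937, or -0.44 with 12 libraries), lost as a call without SETBP1 replicate 2 (adjusted p 0.0583). On this list 19 of 25 genes lay below the sum, with a median of -0.15 in both fits. Vegfa, the endothelial growth factor of the hypoxia response, departed by -0.50 (SE 0.11, adjusted p 0.0282, or -0.64 with 12 libraries) and was called with 5 of 11 further libraries left out (highest adjusted p 0.0973, with SETBP1+NRAS replicate 1 left out). Id2, an inhibitor of helix-loop-helix factors, departed by -0.49 (SE 0.11, adjusted p 0.0464, or -0.81 with 12 libraries) and was called with 2 of 11 further libraries left out (highest adjusted p 0.123, with empty replicate 1 left out) but not with sample quality weights (0.0563) and RLE scaling (0.0520).

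Granule genes of the neutrophil lineage lay below the sum in another way. Each mutant lowered Camp, Ngp, Itgb2l, Mpo and Nkg7, and the pair lowered them by more than the sum of the log2 changes. Ngp, neutrophilic granule protein, measured 4236, 4028 and 4492 with empty vectors, 3041, 1766 and 1679 with SETBP1, 1355, 933 and 1020.0 with NRAS and 276, 266 and 233 with both. The groups stepped down without overlap. Its level with both was 0.414 times the predicted one, a departure of -1.27 (SE 0.21, adjusted p 0.00582) without SETBP1 replicate 3 and -1.12 (adjusted p 0.180) with it. A robust fit gave Ngp an adjusted p of 0.130. Itgb2l, an integrin beta chain of neutrophils, stood at 45.2, 38.4 and 42.9 with empty vectors, 27.0, 20.1 and 12.7 with SETBP1, 24.8, 13.3 and 16.6 with NRAS and 4.20, 2.82 and 3.90 with both. It departed by -1.49 (SE 0.31, adjusted p 0.0230, or -1.24 with 12 libraries), called with 8 of 11 further libraries left out (highest adjusted p 0.0803, with SETBP1+NRAS replicate 2 left out) but not with limma-voom (0.0732) and sample quality weights (0.0883).

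Mpo, the peroxidase of primary granules, measured 15357, 14546 and 16137 with empty vectors, 11255, 10651 and 8697 with SETBP1, 6271, 6257 and 5837 with NRAS and 3028, 3286 and 2799 with both. SETBP1 lowered it by 0.49 on the log2 scale without NRAS and by 1.01 with NRAS. The departure was -0.52 (SE 0.09, adjusted p 0.00764) without SETBP1 replicate 3 and -0.42 with it. Nkg7, a membrane protein of cytotoxic and myeloid granules, stood at 369, 405 and 412 with empty vectors, 265, 265 and 215 with SETBP1, 108, 106 and 108 with NRAS and 50.9, 45.6 and 48.8 with both and departed by -0.58 (SE 0.10, adjusted p 0.00582, or -0.48 with 12 libraries). Mpo and Nkg7 were called with each of 11 further libraries left out. Prtn3, the serine protease proteinase 3, was not changed by SETBP1 alone (-0.01) and fell with NRAS (-0.57); its departure of -0.56 (SE 0.13, adjusted p 0.0398, or -0.58 with 12 libraries) was called with 2 of 11 further libraries left out (highest adjusted p 0.158, with SETBP1 replicate 2 left out) but not with the robust fit (0.0871).

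S100a9, a subunit of calprotectin, fell with SETBP1 in both settings, by 0.92 without NRAS and 1.62 with NRAS on the log2 scale. S100a9 measured 2472, 2426 and 2744 with empty vectors, 1458, 1227 and 1077 with SETBP1, 2567, 1959 and 1870.5 with NRAS and 700.0, 616 and 769 with both. NRAS libraries overlapped with the control, and the libraries with both were the lowest. The departure was -0.69 (SE 0.15, adjusted p 0.0276, or -0.59 with 12 libraries), called with 6 of 11 further libraries left out (highest adjusted p 0.0873, with empty replicate 1 left out) but not with DESeq2 (0.0660) and the robust fit (0.167).

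All 11 primary granule genes tested lay below the sum in both fits, at a median of -0.32 with 12 libraries and -0.37 without SETBP1 replicate 3, and 3 were called without it. Of 21 late neutrophil genes, 16 lay below at a median of -0.56 (-0.37 with 12 libraries), 5 called below and 2 above. The summed late neutrophil genes were 18043 to 19805 CPM with empty vectors, 8788 to 12599 with SETBP1, 8400.4 to 10075 with NRAS and 3479 to 4205 with both. On the CPM scale Ngp, Itgb2l, Mpo and Nkg7 lay above the sum, as Camp did, and S100a9 and Prtn3 lay below it. The direction given for Camp, Ngp, Itgb2l, Mpo and Nkg7 therefore holds for proportional changes and not for absolute ones.

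Gata1, the transcription factor of the red cell, megakaryocyte and mast cell lineages, was also lowest with both. Gata1 stood at 26.6, 24.1 and 22.5 with empty vectors, 17.9, 14.6 and 19.0 with SETBP1, 13.6, 16.6 and 18.6 with NRAS and 5.04, 5.76 and 3.23 with both. Without SETBP1 replicate 3 each mutant lowered Gata1, the single-mutant groups overlapped and the pair was lowest, with a departure of -1.21 (SE 0.27, adjusted p 0.0326, or -1.29 with 12 libraries). It was called with 4 of 11 further libraries left out (highest adjusted p 0.0821, with SETBP1+NRAS replicate 3 left out) but not with limma-voom (0.0521) and sample quality weights (0.0517). Pgr, the progesterone receptor, departed by -2.01 (SE 0.45, adjusted p 0.0330, or -1.56 with 12 libraries), at 0.420, 0.768 and 0.404 CPM with both, where a library holds few reads. Tmem215 and Prkaa2, the latter a catalytic subunit of AMP-activated kinase, departed by -1.77 (SE 0.41, adjusted p 0.0409, or -1.77 with 12 libraries) and -1.49 (SE 0.30, adjusted p 0.0186, or -0.91 with 12 libraries) at levels near or under 10 CPM. Prkaa2 was at 0.118 CPM in SETBP1 replicate 3 against 9.03 and 10.5 in the other SETBP1 libraries. Pgr was called with 5 of 11 further libraries left out (highest adjusted p 0.119, with SETBP1+NRAS replicate 1 left out), Tmem215 with 3 of 11 further libraries left out (highest adjusted p 0.120, with SETBP1+NRAS replicate 1 left out) and Prkaa2 with 9 of 11 further libraries left out (highest adjusted p 0.0774, with SETBP1 replicate 2 left out). Pgr was not called with limma-voom (0.107) and sample quality weights (0.0715) and Tmem215 not with limma-voom (0.0609), DESeq2 gave no adjusted p for Tmem215 and Prkaa2, and on the CPM scale Pgr lay above the sum.

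Mmp8, the collagenase of neutrophil granules, lay above the sum, unlike most of the late neutrophil list, and had the largest positive departure among the called genes named here. Mmp8 measured 284, 303 and 455 with empty vectors, 183, 198 and 447 with SETBP1, 129, 115 and 113 with NRAS and 167, 175 and 237 with both. SETBP1 replicate 3 lay among the controls, while the other SETBP1 libraries lay below them, and both mutants gave more than NRAS alone without overlap. The departure was 1.56 (SE 0.21, adjusted p 0.00103) without that library, a level 2.95 times the predicted one, and 1.03 (SE 0.40, adjusted p 0.340) with it. Mmp8 was called with each of 11 further libraries left out but not in a robust fit (adjusted p 0.0753).

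Itgb7, the beta chain of gut-homing integrins, stood at 189.9, 209 and 196 with empty vectors, 141, 132 and 210.2 with SETBP1, 145, 148 and 137 with NRAS and 180.1, 180.5 and 167 with both. Apart from SETBP1 replicate 3, SETBP1 put it below the control without NRAS and above NRAS alone with it. The departure was 0.83 (SE 0.10, adjusted p 2.84e-04) without that library and 0.60 (SE 0.19, adjusted p 0.268) with it. Il1r2, the decoy receptor that captures interleukin-1, measured 87.4, 83.2 and 129 with empty vectors, 47.0, 38.2 and 71.7 with SETBP1, 80.9, 84.3 and 85.9 with NRAS and 79.3, 78.2 and 97.3 with both. SETBP1 lowered it without NRAS, and NRAS alone and both overlapped. Il1r2 departed by 1.25 (SE 0.21, adjusted p 0.00519, or 0.95 with 12 libraries). Itgb7 and Il1r2 were called in all 22 alternatives run without SETBP1 replicate 3. For Il1b and Il1r2, ligand and decoy, the departures thus had opposite signs.

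Lysosomal genes as a list lay above the sum in 18 of 25 without SETBP1 replicate 3, at a median of 0.09, and in 8 of 25 with it, at -0.06, so the side of the list depended on 1 library. Sulf2, a sulfatase that edits heparan sulfate outside the cell, departed by 0.97 (SE 0.22, adjusted p 0.0330, or 0.94 with 12 libraries), Spint1, an inhibitor of serine proteases, by 0.99 (SE 0.20, adjusted p 0.0210, or 0.63 with 12 libraries), and Pfkfb4, which sets the level of a glycolysis activator, by 1.08 (SE 0.23, adjusted p 0.0236, or 0.92 with 12 libraries). Ccl24, a chemokine for eosinophils, departed by 1.47 (SE 0.34, adjusted p 0.0427, or 1.69 with 12 libraries). Pald1, A530064D06Rik and Ankrd26 departed by 1.20 (SE 0.26, adjusted p 0.0276, or 0.65 with 12 libraries), 1.13 (SE 0.26, adjusted p 0.0445, or 0.45 with 12 libraries) and 1.02 (SE 0.22, adjusted p 0.0295, or 0.84 with 12 libraries). In each of these last 7 genes the call was lost with at least 3 further libraries left out, at adjusted p values up to 0.180 (Ccl24, with SETBP1 replicate 2 left out). Ccl24 was also not called with DESeq2 (0.0815), limma-voom (0.0786), sample quality weights (0.103), a mean count filter of 50 (0.0502) and the robust fit (0.202). The calls of Spint1, Sulf2 and A530064D06Rik were lost with sample quality weights, that of Spint1 with the robust fit, and that of A530064D06Rik with limma-voom and a mean count filter of 50 (adjusted p 0.0502 to 0.126).

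The series title names the MAPK pathway. Its output genes are induced by ERK, and many of them brake it. Of 12 such genes tested, 7 lay above and 5 below the sum in both fits, none was called, and the median was 0.11 with 12 libraries and 0.06 without SETBP1 replicate 3. Egr1 (-1.83) and Dusp2 (-0.91), called below the sum without SETBP1 replicate 3, are not on this list. The list median of the NRAS change was 2.38 on the log2 scale without SETBP1 replicate 3. The list's summed level was 157 to 172 CPM with empty vectors, 155 to 176 with SETBP1, 742 to 799.9 with NRAS and 829 to 888 with both, so the libraries with both lay above NRAS alone without overlap. Dusp4, an ERK phosphatase, stood at 0.996, 0.508 and 2.02 with empty vectors, 0.723, 0.784 and 0 with SETBP1, 6.08, 4.33 and 5.96 with NRAS and 11.7, 8.70 and 7.94 with both. Its departure was 2.00 (SE 0.80, adjusted p 0.344) and 1.40 (SE 0.63, adjusted p 0.300) without SETBP1 replicate 3, a wide error at levels of a few reads in the first 2 groups. Spry4, an inhibitor of RAS signalling, departed by 1.77 (SE 0.86, adjusted p 0.407) and 1.36 (SE 0.82, adjusted p 0.462), from 0.843, 0 and 0.118 CPM with SETBP1. Dusp6, a phosphatase specific for ERK that was chosen after its values were seen, had a departure of 0.15 (SE 0.11, adjusted p 0.583).

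Genes that SETBP1 is reported to switch on, the Hoxa cluster among them, showed no called departure. Of 11 tested, 7 lay above the sum, with a median of 0.45 with 12 libraries and 0.15 without SETBP1 replicate 3. For Hoxa9, a factor of leukemic self-renewal also chosen after its values were seen, the SETBP1 change was 1.36 without NRAS and 1.30 with it. The departure of Hoxa9 was -0.06 (SE 0.18, adjusted p 0.913, or -0.11 with 12 libraries). Eya1, a phosphatase and transcriptional co-activator, changed by 2.12 and 2.38, and departed by 0.26 (SE 0.45, adjusted p 0.848, or 0.58 with 12 libraries). Pbx3, a partner of Hox proteins, stood at 3.65, 4.70 and 2.97 with empty vectors, 3.97, 3.53 and 3.67 with SETBP1, 3.70, 4.19 and 4.06 with NRAS and 8.67, 5.63 and 7.0 with both, with a departure of 0.84 (SE 0.39, adjusted p 0.318, or 0.85 with 12 libraries). A departure that was not called is not shown to be 0.

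Several lists of basal cell functions lay to one side by small amounts. Cytosolic ribosomal proteins were below the sum in 28 of 29 genes with 12 libraries and 29 of 29 without SETBP1 replicate 3, at medians of -0.23 and -0.27, none called. Proteasome subunits lay below in 21 of 23 in both fits (-0.27 and -0.20), and subunits of the respiratory chain in 23 of 24 (-0.26 and -0.17). Ribosome biogenesis genes lay below in 21 of 24 without SETBP1 replicate 3 (-0.18); Pa2g4, a growth-linked factor of ribosome assembly, was called at -0.44 (SE 0.10, adjusted p 0.0353, or -0.67 with 12 libraries), held with 4 of 11 further libraries left out (highest adjusted p 0.154, with SETBP1 replicate 2 left out). Cholesterol and fatty acid synthesis lay above, in 22 of 24 with 12 libraries and 19 of 24 without SETBP1 replicate 3 (0.20 and 0.17), none called. Departures also moved with transcript length: the median was -0.21 in the 2751 genes with the shortest transcripts (up to 2229 bases) and 0.17 in the 2752 with the longest (from 4752 bases) with 12 libraries, and -0.12 and 0.04 without SETBP1 replicate 3. Ribosomal protein and respiratory chain transcripts are short, and the part of length in their medians was not tested. Nor was it tested for any other list or single gene given here, the interferon, chemokine, granule and proteasome genes included.

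**Figure D5:**
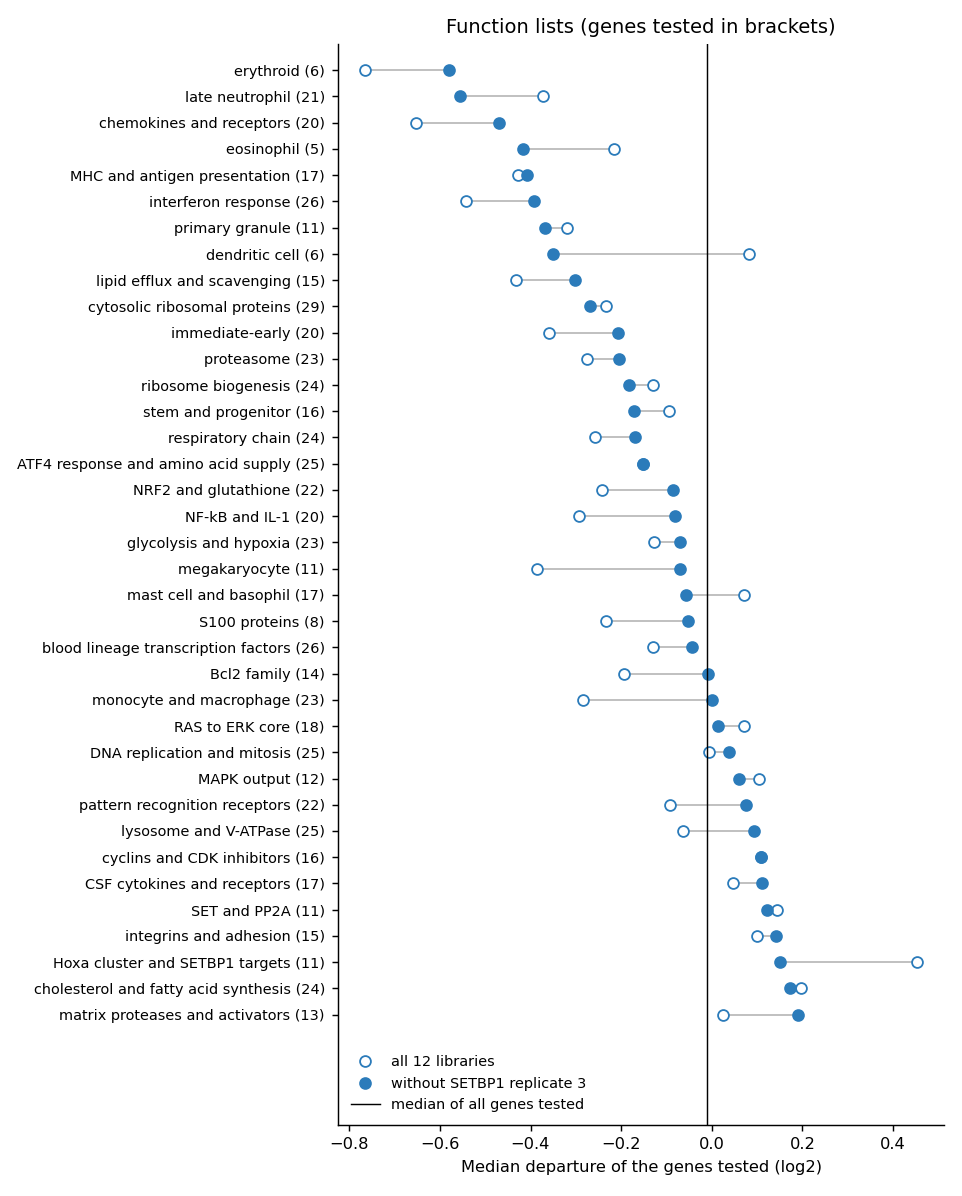
Median departure (x axis, log2) of the tested genes of each function list with at least 5 tested genes, with all 12 libraries (open) and without SETBP1 replicate 3 (filled); the vertical line is the median of all genes. Interferon response, chemokines, antigen presentation and both granule lists lie left of the line in both fits, while the monocyte and macrophage, dendritic cell, mast cell and basophil, pattern receptor, lysosome and Bcl2 family lists change side, the first and last of them ending close to it.

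The lists of cell division and of the RAS to ERK core had small medians. Those of cyclins and CDK inhibitors were the furthest from the -0.01 of all genes. DNA replication and mitosis genes had medians of -0.01 with 12 libraries and 0.04 without SETBP1 replicate 3 over 25 genes, cyclins and CDK inhibitors 0.11 and 0.11 over 16, and the RAS to ERK core 0.07 and 0.01 over 18; none of their members was called. Mki67, a marker of cycling cells, departed by 0.21 (SE 0.15, adjusted p 0.572, or 0.40 with 12 libraries), and Tk1, thymidine kinase of S phase, by -0.46 (SE 0.13, adjusted p 0.0832, or -0.54 with 12 libraries), without SETBP1 replicate 3.

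Leaving out SETBP1 replicate 3 changes the mean of its group. By arithmetic, the departures that moved most were therefore those where that library lay far from the other SETBP1 libraries. Dcstamp, a fusion protein of osteoclasts and macrophage giant cells, was at 10.2 CPM in it against 0.120 and 0.392 in the other SETBP1 libraries, and its departure went from -4.27 (SE 1.51) to -0.51 (SE 1.25). Serpinb2, an inhibitor of plasminogen activators in activated macrophages, was at 20.9 against 3.61 and 2.09 CPM, and changed sign from -0.35 to 1.29 (adjusted p 0.0813). Cxcl3, a neutrophil chemokine, was at 179 against 34.2 and 29.8 CPM and moved from -1.76 to -0.43. Ifit1bl1, which is not on the interferon list, changed sign from -0.65 to 0.61, and Sema3c moved from -1.75 to -0.41. In the opposite direction Dennd2c, Piwil2, Dip2a and Klf1, all at 0 in SETBP1 replicate 3, moved from 1.73, -0.27, 0.61 and -0.76 to 1.13, -0.88, 0.01 and -1.36. None of these genes was called in either fit.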

How the data were processed

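RNA of 12 libraries, 3 per group, was sequenced. The authors deposited whole-number counts per gene for 19910 symbols, of which 5080 had no count in any library. STAR, DESeq2 and mm10 are named in the submitters' processing notes, with no version; the counting tool, annotation and strand rule are not given in the sources used here. Per the labels, total RNA was taken with a micro-scale kit and amplified with a SMART-Seq chemistry for very low input.

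Counts were scaled by TMM and fitted with edgeR 4.0.16 (R 4.3.3) as 4 group means, after filterByExpr (minimum count 10, minimum total 15), which kept 99.9% of counts. The departure was a contrast of the group means, tested with the quasi-likelihood F test and adjusted by Benjamini-Hochberg over all genes, with 12 libraries and again, filter included, with 11. The procedure was tested on simulated data. Replicates of a group differed beyond sampling noise, so none was counted as a duplicate. Library totals differed little, so depth set a like precision in all groups, and genes of a few CPM carry a wide error.

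Named genes were those called with 12 libraries; without SETBP1 replicate 3, the 10 furthest below and above the sum whose best-expressed group averaged 50 counts or more; up to 4 called members of each of 40 function lists, or else the 2 with the largest departure; Setbp1 and Nras; and the 5 in each direction moved most by SETBP1 replicate 3. Some named genes of lists without calls are not printed, and some genes that the rule names are not reported here. The lists, written from general knowledge and partly overlapping, the genes and the choice of the library left out were made with earlier results of these data known. Promoters came from RefSeq (GRCm38.p6). Alternatives were DESeq2 1.42.0, limma-voom (limma 3.58.1) with and without sample weights, other scalings, filters and thresholds, a robust fit, a replicate block and leaving out each library.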

Additional observations from a re-analysis of the deposited data

Results flagged for a closer look

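What drew attention in each case was the interaction test itself: SETBP1 changed the gene by different amounts depending on NRAS. With all 12 libraries this held for Slc7a11 (departure -1.44), Tmem176b (-1.48), Camp (-1.55), Apobec3 (-0.74) and Oaf (1.06), all on the log2 scale. Without SETBP1 replicate 3 it also held for inflammatory, interferon and antigen presentation genes below the sum: Il1b (-1.90), Egr1 (-1.83), Cxcl10 (-1.54), Mmp14 (-1.40), Saa3 (-1.22), Cd14 (-1.16), Isg15 (-1.10), Ccl2 (-1.08), Clec4d (-0.99), Dusp2 (-0.91), Ccl4 (-0.86), Clec4e (-0.68), Bst2 (-0.66), Junb (-0.61) and H2-K1 (-0.41). Granule and myeloid surface genes below the sum were Itgb2l (-1.49), Ngp (-1.27), S100a9 (-0.69), Nkg7 (-0.58), Prtn3 (-0.56), Mpo (-0.52) and Ly6c2 (-0.42). Other genes below it were Pgr (-2.01), Tmem215 (-1.77), Prkaa2 (-1.49), Gata1 (-1.21), Hmox1 (-0.64), Fth1 (-0.52), Vegfa (-0.50), Id2 (-0.49), Phgdh (-0.45) and Pa2g4 (-0.44). Those above it were Mmp8 (1.56), Ccl24 (1.47), Il1r2 (1.25), Pald1 (1.20), A530064D06Rik (1.13), Pfkfb4 (1.08), Ankrd26 (1.02), Spint1 (0.99), Sulf2 (0.97), Itgb7 (0.83), Tlr13 (0.75) and Klf2 (0.57). The choice of that library was made with its outlying position known, and the second set of genes was not called when it was included. Of that set, 13 were called with each of 11 further libraries left out.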

How the results depend on the processing

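With 12 libraries the 5 calls became 1 at an adjusted p under 0.01, 93 with DESeq2 (38 above the sum and 55 below), 3 with limma-voom, 351 with sample quality weights (174 and 177) and 14 without a filter on low counts (3 and 11); library size scaling gave 7 (3 and 4) and upper-quartile scaling 4 (1 and 3). Leaving out each library in turn gave 1 to 110 calls: 1 with empty replicate 1 or 3 left out, 2 with empty replicate 2, 3 with NRAS replicate 2, 2 or 3 with a library with both, and 76, 10 and 110 with SETBP1 replicates 1, 2 and 3. Without SETBP1 replicate 3 the 110 calls became 33 at an adjusted p under 0.01, 286 at one under 0.10, 217 with DESeq2 (124 and 93) and 455 without a filter (226 and 229), while limma-voom gave 102 and library size scaling 115. A further library left out gave 50 to 266 calls: 50 with SETBP1+NRAS replicate 1 left out, 54 with empty replicate 1, 238 and 61 with SETBP1 replicates 1 and 2, and 70 and 266 with NRAS replicates 2 and 3. Where only 1 SETBP1 library remained, it was assumed to vary like the other groups. The cause of these changes was not tested. Replicate numbers do not pair the libraries: over 18 same-numbered pairs the correlation of deviations was -0.13 to 0.12, 1 pair was over 0.1, and 1 of 12 libraries correlated best with its own number. A replicate block gave 6 and 126 calls and ended those of Oaf with 12 libraries (0.0629) and of Klf2, Prtn3, Ly6c2, Hmox1 and Id2 without SETBP1 replicate 3 (adjusted p 0.0556 to 0.0663). Camp turned from -1.55 on the log2 scale to 49.5 CPM on the linear scale. The 45 named genes that were called only without SETBP1 replicate 3 kept their direction in all alternatives run on the log2 scale, 9 of them with their call in each. The CPM scale was not among those alternatives. On it Pgr, Itgb2l, Ngp, Ccl2, Clec4d, Ccl4, Hmox1, Nkg7, Mpo and Fth1 turned direction. Medians of 33 to 40 of the 40 lists kept their sign with 12 libraries and of 35 to 40 without SETBP1 replicate 3. The median standard error of 0.218 on the log2 scale limits how small a departure could be detected with 3 libraries a group.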
